A study of Rattus norvegicus with 6 samples.

Results

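The genes described here are the 41 complement and coagulation factors that the rat liver makes and secretes into plasma, or makes to control those proteins. They were selected by gene symbol, with a rule that uses no measured value, although earlier results of these data were known when the list was drawn up. On the array, 35 of the 41 were represented by at least 1 probe that could be named, of 15284 genes named in all, and each was read from its probe with the highest mean signal. C5, C8g, F5, F11, F13b and Proz had no named probe in the tables used and have no value here. All 35 were well above background, as the scanner software marks each spot, on all 6 arrays, so no member entered the test through 1 group alone.

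The livers came from 6 male rats of the outbred Sprague-Dawley stock, and RNA from each was hybridised to its own one-colour array. Vehicle was given to 3 animals. The other 3 received tert-butyl alcohol (tBA), an industrial solvent, at a dose of 1000 mg/kg/day. The rats were 5 weeks old when purchased. The sample labels name purified water as the vehicle and the treatment protocol names corn oil, and the series gives 28 days of dosing where the protocol gives 9 weeks, so neither the vehicle nor the duration is settled by the labels.

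Coagulation and complement are cascades of protease precursors, each of which cleaves and activates the next, and the hepatocyte is the main source of most of them. Clotting runs through the vitamin K-dependent proteases to thrombin, which turns fibrinogen into fibrin. Complement runs through the lectin, classical and alternative routes to the cleavage of C3 and then to a pore built from the terminal components. Both cascades are held in check by inhibitors that the liver also secretes.

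Hepatocyte marker genes were read beside the tissue label. All 10 were measured, with a median difference of 0.03 on the log2 scale between tBA and vehicle. Of these markers 7 were higher and 3 lower, from -0.36 for Apoa1 to 0.36 for Cps1. The summed level of the 10, in units of each array's 75th percentile, was 4483 to 4867 in vehicle and 4434 to 4675 in tBA. Per array, 61.5% to 66.9% of all probes exceeded background clearly. The array is a bulk measurement, in which fewer cells of a type and less RNA per cell cannot be told apart. The 3 vehicle arrays and tBA replicate 1 lay on slide 1, and tBA replicates 2 and 3 lay on slide 2, which was also scanned apart. A difference on slide 1 alone therefore compares 1 tBA array with 3 vehicle arrays.

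Promoters are shown for the genes whose values are compared most closely: the fibrinogen chains, which lie together on chromosome 2, C8a and C8b, both on chromosome 5, and F7. Each line gives the 250 bases before the transcription start, 5′ to 3′ on the gene's own strand, from RefSeq on the GRCr8 assembly. Capitals mark matches, on either strand, to GTTAAT (part of the site of the liver factor HNF1), CAAAGNNCA (that of HNF4) or CTGGGAA (letters of the interleukin-6 response element of fibrinogen genes).
Fga (chr2:170671919-170672168, plus strand): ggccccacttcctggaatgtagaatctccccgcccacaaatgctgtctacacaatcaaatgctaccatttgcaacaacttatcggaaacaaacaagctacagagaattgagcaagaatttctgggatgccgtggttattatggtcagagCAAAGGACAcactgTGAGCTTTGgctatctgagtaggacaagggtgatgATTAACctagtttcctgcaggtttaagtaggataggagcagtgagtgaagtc
Fgb (chr2:170700876-170701125, minus strand): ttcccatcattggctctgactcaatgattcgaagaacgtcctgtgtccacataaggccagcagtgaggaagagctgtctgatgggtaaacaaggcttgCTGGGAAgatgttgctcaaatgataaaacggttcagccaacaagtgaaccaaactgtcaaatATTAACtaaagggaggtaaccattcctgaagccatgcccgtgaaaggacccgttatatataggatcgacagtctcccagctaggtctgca
Fgg (chr2:170652833-170653082, plus strand): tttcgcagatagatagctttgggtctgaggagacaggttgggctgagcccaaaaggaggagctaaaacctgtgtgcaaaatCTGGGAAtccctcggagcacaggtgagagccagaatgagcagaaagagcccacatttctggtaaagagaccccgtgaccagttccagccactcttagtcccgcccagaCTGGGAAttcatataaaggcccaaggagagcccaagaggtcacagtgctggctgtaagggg
C8a (chr5:124866632-124866881, minus strand): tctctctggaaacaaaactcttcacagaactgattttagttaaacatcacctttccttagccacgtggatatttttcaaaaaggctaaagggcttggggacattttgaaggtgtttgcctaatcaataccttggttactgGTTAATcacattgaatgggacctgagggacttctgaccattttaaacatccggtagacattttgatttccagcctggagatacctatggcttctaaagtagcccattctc
C8b (chr5:124763864-124764113, plus strand): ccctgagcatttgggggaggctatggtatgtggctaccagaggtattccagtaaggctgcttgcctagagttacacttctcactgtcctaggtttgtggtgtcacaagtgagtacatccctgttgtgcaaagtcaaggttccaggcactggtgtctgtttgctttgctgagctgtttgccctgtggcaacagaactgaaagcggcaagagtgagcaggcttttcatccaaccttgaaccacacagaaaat
F7 (chr16:83202739-83202988, minus strand): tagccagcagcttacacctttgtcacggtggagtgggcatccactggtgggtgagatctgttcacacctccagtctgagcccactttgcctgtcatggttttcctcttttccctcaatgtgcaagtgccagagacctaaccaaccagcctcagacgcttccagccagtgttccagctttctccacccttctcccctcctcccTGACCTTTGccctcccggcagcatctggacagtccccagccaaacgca

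In these windows Fga held ATTAAC, the reverse complement of GTTAAT, 52 bases before the start, and matches to the HNF4 letters at 101 and 87 bases. Fgb held ATTAAC at 90 bases and CTGGGAA at 152 bases. Fgg held CTGGGAA at 169 and at 61 bases. C8a held GTTAAT at 110 bases, F7 held TGACCTTTG, a match to the HNF4 letters on the other strand, at 48 bases, and C8b held none of the 3 motifs. No matches overlapped one another. A RefSeq promoter was found for 32 of the 41 members; Fga has 2 entries, of which the first is shown. These genes have 33 promoters in all, and they include members with no named probe, such as C5. GTTAAT was present in 11 of the 33, for 10 of the 32 genes, and in 6.45% of all 33469 promoters of the table. CTGGGAA was present in 9 of the 33 member promoters and in 9.56% of all promoters. CAAAGNNCA was present in 5 of the 33, for 4 of the 32 genes, and in 5.22% of all promoters. A match describes letters in the window and was not tested as a binding site.

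The comparison of tBA with vehicle asks which of these transcripts differed in liver after repeated dosing. In every value below, a level is the log2 processed signal of a gene's probe minus the 75th percentile of its array, and a difference is the mean of the 3 tBA arrays minus the mean of the 3 vehicle arrays on that scale. No member passed the test. Of the 37647 probes tested with limma, 42 or 0.112% had a Benjamini-Hochberg adjusted p under 0.05, and the lowest adjusted p among the 35 members was 0.268, for Pros1. The members' differences ran from -0.36 for C8a, the alpha chain of a terminal complement component, to 0.32 for F7, the protease that starts clotting with tissue factor. Their median was 0.01 and their median size without sign was 0.12, against 0.00 and 0.16 over the 11093 genes tested.

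At an unadjusted p under 0.05 there were 4 of 35 members, or 11.4%, against 15.1% of the genes tested, and these were F7, Pros1, F12 and Hrg. The count was 1 without vehicle replicate 1, vehicle replicate 2 or tBA replicate 3, 0 without vehicle replicate 3 or tBA replicate 2, and 6 without tBA replicate 1. All 4 were higher in tBA, the direction in which 7.59% of the genes had such a p. The 3 vehicle values did not overlap the 3 tBA values for 9 of 35 members, or 25.7%, which is close to the 24.2% of genes tested. Of those 9, Proc, F7, Pros1, F12, Serpinc1 and Hrg were higher in tBA, and Fgg, Vtn and Masp2 were lower. In all, 20 members were higher and 15 lower, 57.1% higher against 50.4% of genes tested. That split turned with the scaling, to 11 higher and 24 lower after quantile normalization, so it carries no direction for the members as a whole.

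**Figure D1:**
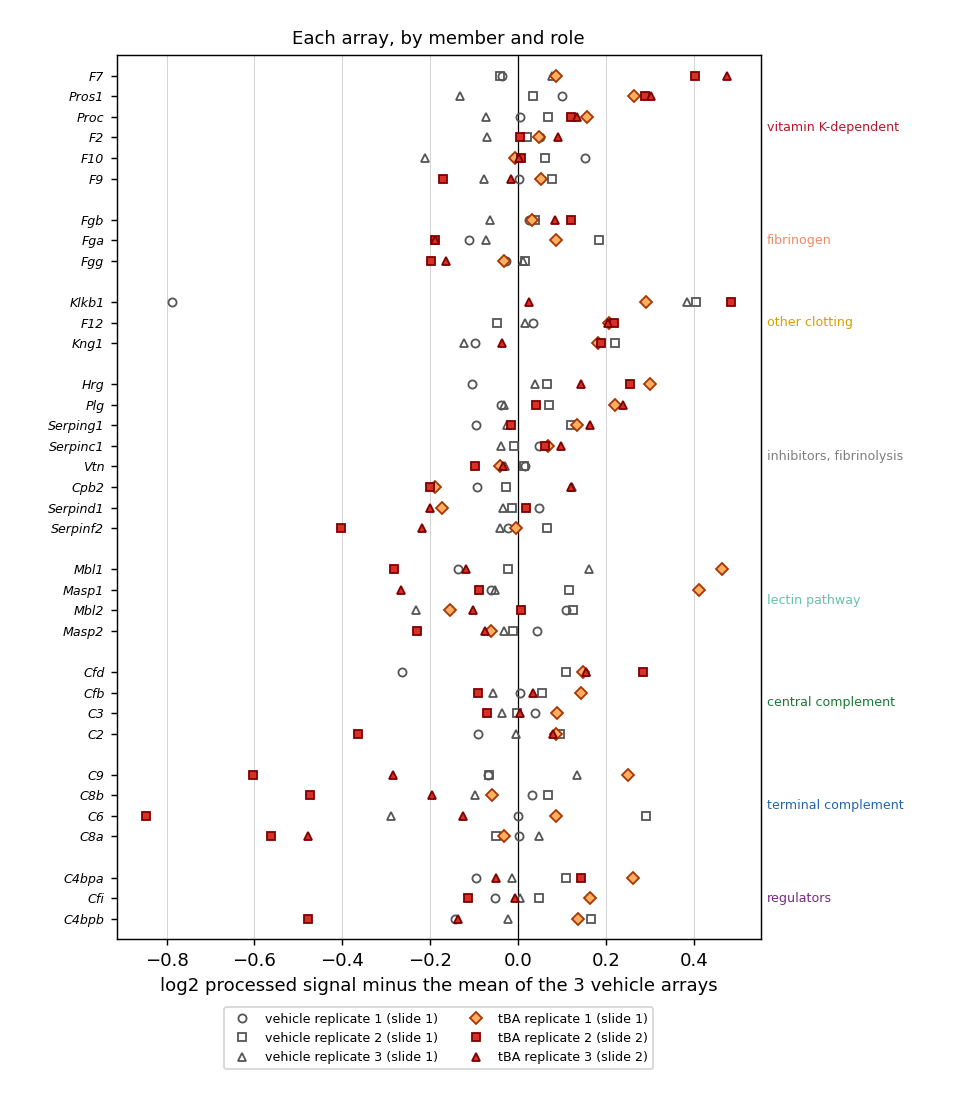
Level of each of the 35 members on each array, as log2 signal minus the mean of the 3 vehicle arrays (x axis), by role. Open symbols are vehicle arrays, the diamond is tBA replicate 1 on slide 1, and filled red symbols are tBA replicates 2 and 3 on slide 2. For the terminal complement genes the diamond lies among the vehicle symbols for C6, C8a and C8b and above them for C9, and the squares of tBA replicate 2 lie furthest to the left.

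The vitamin K-dependent factors carry glutamates that are carboxylated with vitamin K as cofactor so that the protein binds calcium and membranes. Of the 6 measured, 5 were higher and 1 was lower, with a median difference of 0.09, and none passed the test. That is 83.3% higher, against 50.4% of genes tested, and it counts F10, which differed by 0.00. The split turned with the scaling. After normexp background correction or quantile normalization 3 of the 6 were lower, and after median normalization 0 were lower. After quantile normalization their median was 0.01.

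F7 was at 1.24, 1.23 and 1.35 on vehicle replicates 1 to 3 and at 1.36, 1.68 and 1.75 on tBA replicates 1 to 3. The lowest tBA value was just above the highest vehicle value, and the pair on slide 2 stood apart from the other 4. The difference was 0.32, or 25.0% more signal (SE 0.13, 95% interval 0.02 to 0.63, n = 3 and 3, limma adjusted p = 0.303, unadjusted p = 0.0416). It was 0.09 on slide 1 and 0.44 without tBA replicate 1.

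Pros1 encodes protein S, the cofactor of activated protein C in shutting down clotting. Its level was 2.39, 2.32 and 2.16 on the vehicle arrays and 2.55, 2.58 and 2.59 on the tBA arrays. The tBA values lay close together and above all 3 vehicle values, and the difference was 0.29 (SE 0.09, 95% interval 0.06 to 0.51, limma adjusted p = 0.268). On slide 1 it was 0.26. The second tested probe of Pros1 differed by -0.06, and the mean of both by 0.11, so the value belongs to 1 probe.

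Proc encodes protein C itself, the anticoagulant protease. It was at 7.63, 7.69 and 7.55 in vehicle and at 7.78, 7.75 and 7.76 in tBA, again without overlap, a difference of 0.14 (SE 0.08, limma adjusted p = 0.445). Its second probe differed by 0.08. The difference of Proc was 0.02 after quantile and 0.21 after median normalization.

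F2, F9 and F10 encode prothrombin and the proteases that meet in the clotting complexes upstream of it. F2 was at 9.34, 9.31 and 9.22 in vehicle and 9.33, 9.29 and 9.38 in tBA, a difference of 0.05 (SE 0.08). F9 was at 6.38, 6.45 and 6.30 in vehicle and 6.43, 6.20 and 6.36 in tBA, a difference of -0.05 (SE 0.10). F10 was at 6.45, 6.36 and 6.09 in vehicle and 6.30, 6.31 and 6.30 in tBA, a difference of 0.00 (SE 0.12). In each of these genes the groups overlapped. Their 95% intervals, the widest of which was -0.28 to 0.28 for F10, lay within a 1.5-fold difference either way.

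The genes that act on vitamin K or share the carboxylated domain were read from a list of 9, all of which were tested. With limma 0 passed and 1 had an unadjusted p under 0.05, beside 15.1% of all genes. Of the 9, 3 were higher and 6 lower, and the median difference was -0.11. Ggcx, the carboxylase, was at 3.98, 3.87 and 3.94 in vehicle and at 4.03, 4.02 and 4.12 in tBA, a difference of 0.13 (limma adjusted p = 0.478) that its 3 probes shared in sign. The 3 genes of the list with the smallest unadjusted p were Prrg1 and Prrg4, membrane proteins with a carboxylated domain, and Gas6, a ligand of receptor tyrosine kinases. Prrg1 differed by -0.42 (limma adjusted p = 0.299) and by -0.16 after normexp background correction. Prrg4 differed by -0.35 (limma adjusted p = 0.335). Gas6 differed by -0.69 (SE 0.40, limma adjusted p = 0.428), with 2.49 on tBA replicate 1, inside the vehicle range of 2.00 to 2.67, and 0.96 and 1.53 on the slide 2 arrays.

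Fibrinogen is assembled from 3 chains, made from neighbouring genes that are induced together in the acute phase response. Read from the brightest probe of each gene, Fga and Fgg were lower and Fgb was higher, and none passed the test. Fga, the alpha chain, was at 8.99, 9.28 and 9.02 in vehicle and 9.18, 8.91 and 8.91 in tBA, a difference of -0.10 (SE 0.13, limma adjusted p = 0.725). Fgb, the beta chain, was at 9.74, 9.75 and 9.65 in vehicle and 9.75, 9.84 and 9.80 in tBA, a difference of 0.08 (SE 0.08, limma adjusted p = 0.654). Fgg, the gamma chain, was at 9.18, 9.22 and 9.21 in vehicle and 9.17, 9.005 and 9.04 in tBA, a difference of -0.13 (SE 0.09, limma adjusted p = 0.475).

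For Fga and Fgg the low values were those of slide 2, and tBA replicate 1 differed from the vehicle mean by 0.09 and -0.03. For Fgb the tBA values overlapped vehicle, and its second probe differed by -0.04 with the sign turned. Every 95% interval of the 3 chains excluded a 1.5-fold difference, the widest being -0.41 to 0.22 for Fga. In the promoters printed above, the full letters CTGGGAA were found for Fgb and Fgg. The Fga line holds ctgggat, which differs in its last letter only and was not counted as a match. Whether the motif bears on these differences was not tested.

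The contact factors start clotting on charged surfaces and release bradykinin. F12, the factor XII protease, was at 7.72, 7.64 and 7.71 in vehicle and at 7.90, 7.91 and 7.90 in tBA. The tBA values spanned less than the vehicle values and lay above them, a difference of 0.21 or 15.7% more signal (SE 0.08, 95% interval 0.02 to 0.40, limma adjusted p = 0.293). It was 0.11 after quantile normalization. On slide 1 it was 0.21, where the second probe of F12 differed by 0.01, and over the 6 arrays that probe differed by 0.09.

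Klkb1, plasma prekallikrein, had the widest interval of any member. Vehicle replicate 1 was at 4.47 and the other 5 arrays lay between 5.28 and 5.74, so the difference of 0.27 (95% interval -0.56 to 1.09) became -0.13 without that array. Kng1, the kininogen that carries bradykinin, was at 7.35, 7.67 and 7.32 in vehicle and 7.63, 7.63 and 7.41 in tBA, a difference of 0.11 (SE 0.13). Kng1 has a closely similar paralog in the rat, Kng2, and how far its probes tell them apart was not tested.

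The coagulation members that are not vitamin K-dependent, without Serping1 and Vtn, which also act in complement, numbered 12 measured of 15. Their median difference was 0.08, with 7 higher and 5 lower, and it was -0.02 without vehicle replicate 1.

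Inhibitors and fibrinolysis were represented by 8 genes, of which 4 were higher and 4 lower, with a median difference of 0.01 and none past the test. Hrg, a plasma glycoprotein that binds heparin and plasminogen, was at 8.34, 8.51 and 8.48 in vehicle and 8.74, 8.70 and 8.58 in tBA. The groups did not overlap, and the difference was 0.23 (SE 0.09, 95% interval 0.00 to 0.46, limma adjusted p = 0.314). On slide 1 it was 0.30, and the second probe differed by 0.12.

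Plg, plasminogen, the precursor of the protease that dissolves fibrin, was at 8.70, 8.80 and 8.70 in vehicle and 8.96, 8.77 and 8.97 in tBA, a difference of 0.17 (SE 0.10, limma adjusted p = 0.424). Its second probe differed by -0.08. Serpinf2, alpha-2-antiplasmin, which inhibits plasmin, was at 6.16, 6.24 and 6.14 in vehicle and 6.17, 5.77 and 5.96 in tBA, a difference of -0.21 (SE 0.12, limma adjusted p = 0.432). Both probes of Serpinf2 were lower, and tBA replicate 1 lay inside the vehicle range.

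The other 5 genes of this role differed by -0.12 to 0.09. They are Serpinc1 (antithrombin), Serpind1 (heparin cofactor II), Serping1 (the inhibitor of C1, the lectin proteases and the contact proteases), Cpb2 (a carboxypeptidase that protects fibrin) and Vtn (vitronectin, which also blocks the terminal complement pore). Serpinc1 and Vtn had groups without overlap, at 0.08 and -0.06, each smaller than its standard error.

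**Figure D2:**
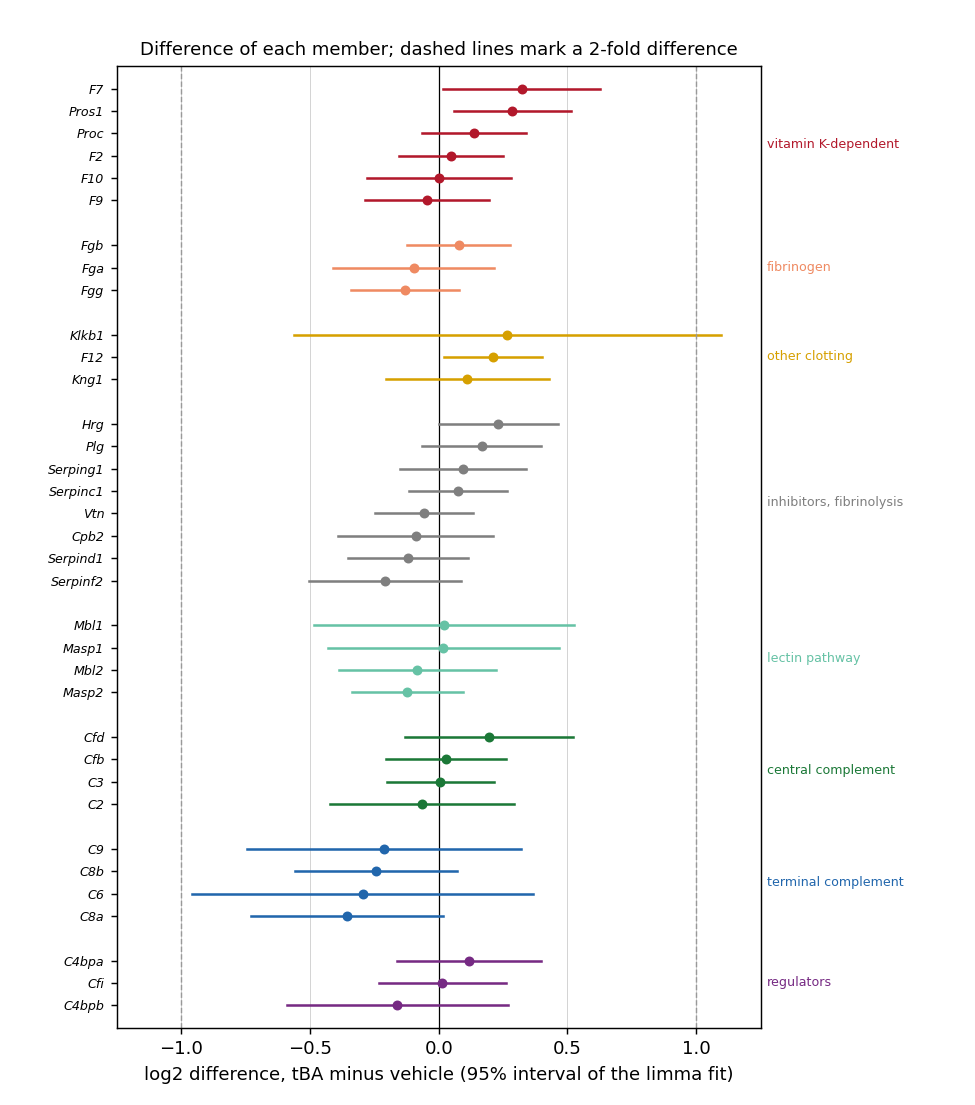
Difference of each member, tBA minus vehicle on the log2 scale (x axis), with its 95% interval from the limma fit, coloured by role. The dashed lines mark a 2-fold difference; only the interval of Klkb1 crosses one of them.

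For 34 of 35 members, or 97.1%, the 95% interval lay within a 2-fold difference in both directions, against 87.2% of genes tested, and the exception was Klkb1. For 29 members, or 82.9%, it lay within 1.5-fold, against 63.0% of genes. The members' median standard error was 0.12 and that of all genes 0.13. The median SD over animals was 0.09 in vehicle and 0.12 in tBA for the members, against 0.14 and 0.15 for all genes. These comparisons were not matched for signal. Every member was well above background on each array, and the dimmest, F7, had a vehicle mean of 1.27. The genes tested include far dimmer ones, such as Cd46 with a vehicle mean of -4.02. Whether the members' narrower intervals and smaller SDs follow from their signal level was not tested.

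Complement members, 15 of 17 measured, had a median difference of -0.07, with 7 higher and 8 lower, and the median was 0.05 without tBA replicate 2, -0.15 without tBA replicate 1 and -0.02 without vehicle replicate 2. Their spread among the tBA animals was wider than among the vehicle animals, with a median SD of 0.21 against 0.10, where all genes had 0.15 against 0.14. In 13 of the 15, or 86.7%, tBA replicate 1 was above both other tBA arrays, which held for 37.3% of genes tested. The median of the complement members against the vehicle mean was 0.14 on tBA replicate 1, -0.23 on tBA replicate 2 and -0.10 on tBA replicate 3. Slide and animal cannot be told apart in that pattern, since the slide 2 arrays were 2 tBA animals.

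The terminal components C6, C8 and C9 join C5b to form the membrane attack complex. All 4 genes measured had lower means in tBA, with a median difference of -0.27, and none passed the test. The median was -0.47 without tBA replicate 1, -0.07 without tBA replicate 2 and 0.03, with 2 of 4 lower, on slide 1 alone. C8a was at 6.21, 6.15 and 6.25 in vehicle and 6.17, 5.64 and 5.73 in tBA. Both slide 2 arrays were below every vehicle array, and tBA replicate 1 lay inside the vehicle range. The difference was -0.36, or 21.9% less signal (SE 0.15, 95% interval -0.73 to 0.02, limma adjusted p = 0.327). On slide 1 it was -0.03, without tBA replicate 2 it was -0.25, and without tBA replicate 1 it was -0.52 (limma adjusted p = 0.140, the lowest of any member under any alternative tried). All 3 tested probes of C8a were lower over the 6 arrays, with differences of -0.36, -0.17 and -0.25. On slide 1 the same probes differed by -0.03, 0.03 and -0.07.

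C8b, the beta chain, was at 5.38, 5.41 and 5.25 in vehicle and 5.29, 4.87 and 5.15 in tBA, a difference of -0.24 (SE 0.13, limma adjusted p = 0.397). C6, the first component to bind C5b, was at 4.30, 4.59 and 4.01 in vehicle and 4.38, 3.45 and 4.17 in tBA, a difference of -0.30 (SE 0.27, limma adjusted p = 0.607). C9, which forms the ring of the pore, was looked at after its values were seen and was at 6.50, 6.50 and 6.70 in vehicle and 6.82, 5.97 and 6.29 in tBA, a difference of -0.21 (SE 0.22). In these 3 genes tBA replicate 2 was the lowest of the 6 arrays, and in C9 tBA replicate 1 was the highest. On slide 1 the differences were -0.06 for C8b, 0.09 for C6 and 0.25 for C9. Without tBA replicate 2 they were -0.13 for C8b, -0.02 for C6 and -0.02 for C9.

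**Figure D3:**
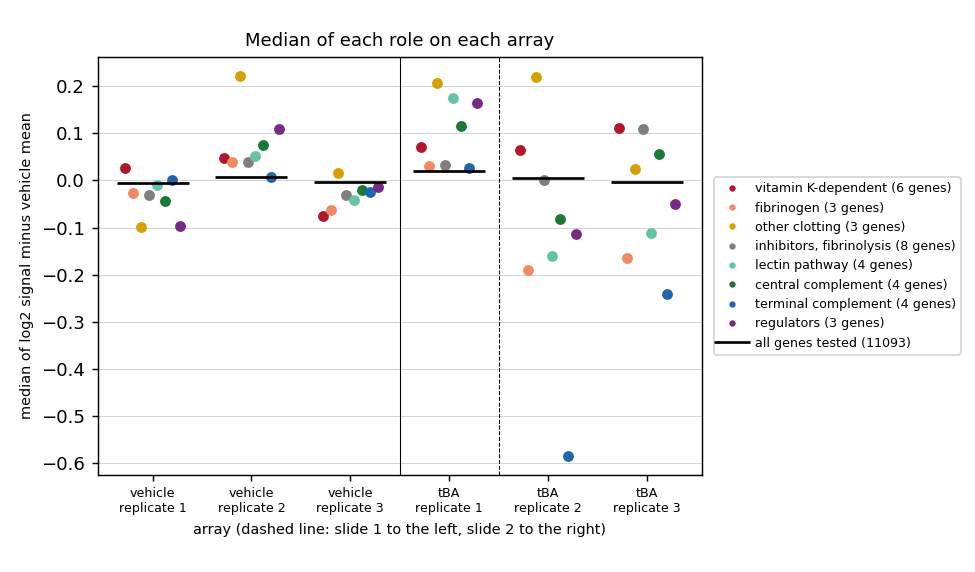
Median over the members of each role, as log2 signal minus the vehicle mean (y axis), on each of the 6 arrays (x axis). Dots are roles, offset sideways for legibility, and black bars are the median of the 11093 genes tested. The terminal complement dot is at 0.03 on tBA replicate 1, -0.58 on tBA replicate 2 and -0.24 on tBA replicate 3, while the vitamin K-dependent dot is between 0.06 and 0.11 on all 3.

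The lectin pathway recognises sugars on microbes through the mannose-binding lectins Mbl1 and Mbl2 and cleaves C4 and C2 through the proteases Masp1 and Masp2. Masp2 was at 4.42, 4.37 and 4.35 in vehicle and 4.32, 4.15 and 4.30 in tBA, a difference of -0.12 (SE 0.09, limma adjusted p = 0.513) without overlap of the groups. Its other 2 probes differed by 0.19 and 0.12, with the sign turned. Masp1 was at 3.41, 3.59 and 3.42 in vehicle and 3.88, 3.38 and 3.21 in tBA, a difference of 0.02 (SE 0.19).

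Mbl2 was at 4.03, 4.04 and 3.69 in vehicle and 3.77, 3.93 and 3.82 in tBA, a difference of -0.08 (SE 0.13). Mbl1, named after its values were seen, was at 4.99, 5.11 and 5.29 in vehicle and 5.60, 4.85 and 5.01 in tBA, a difference of 0.02 (SE 0.21). For Masp1 and Mbl1 the highest of the 6 arrays was tBA replicate 1 and the lowest was a slide 2 array. Beside these small mean differences, the slide 1 differences were 0.41 for Masp1 and 0.46 for Mbl1. The other 3 probes of Masp1 were also higher on slide 1, by 0.32, 0.36 and 0.18.

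Of the central components, Cfd, factor D, the protease that activates factor B, was at 3.07, 3.44 and 3.48 in vehicle and 3.48, 3.61 and 3.48 in tBA. The difference of 0.19 (SE 0.14, limma adjusted p = 0.497) became 0.06 without vehicle replicate 1, the lowest array. Factor D is also a product of fat cells, whose markers Adipoq and Lep were not well above background. The measured markers Fabp4 and Cidec had a summed level of 6.13 to 8.63 in vehicle and 6.73 to 9.81 in tBA. That sum was nearly all Cidec, which differed by 0.06, while Fabp4, at far lower signal, differed by 0.40. Whether fat tissue had a part in the Cfd value was not tested. C2, the protease of the classical and lectin convertase, was at 4.08, 4.27 and 4.17 in vehicle and 4.26, 3.81 and 4.25 in tBA, a difference of -0.07 (SE 0.15). Cfb, factor B, its counterpart in the alternative route, was at 8.81, 8.86 and 8.75 in vehicle and 8.95, 8.72 and 8.84 in tBA, a difference of 0.03 (SE 0.10). C3, on which all routes meet, differed by 0.01 with a 95% interval of -0.20 to 0.22. The groups overlapped in all 4.

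The regulators were C4bpa and C4bpb, the chains of the C4b-binding protein, and Cfi, factor I, the protease that inactivates C3b and C4b. C4bpb, whose chain also binds protein S in plasma, was at 7.76, 8.07 and 7.88 in vehicle and 8.04, 7.42 and 7.76 in tBA, a difference of -0.16 (SE 0.18, limma adjusted p = 0.668). C4bpa was at 6.77, 6.97 and 6.85 in vehicle and 7.13, 7.01 and 6.81 in tBA, a difference of 0.12 (SE 0.12, limma adjusted p = 0.629). Cfi was at 8.70, 8.80 and 8.76 in vehicle and 8.92, 8.64 and 8.75 in tBA, a difference of 0.01 (SE 0.10). In each, tBA replicate 1 was the highest tBA array and the groups overlapped.

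**Figure D4:**
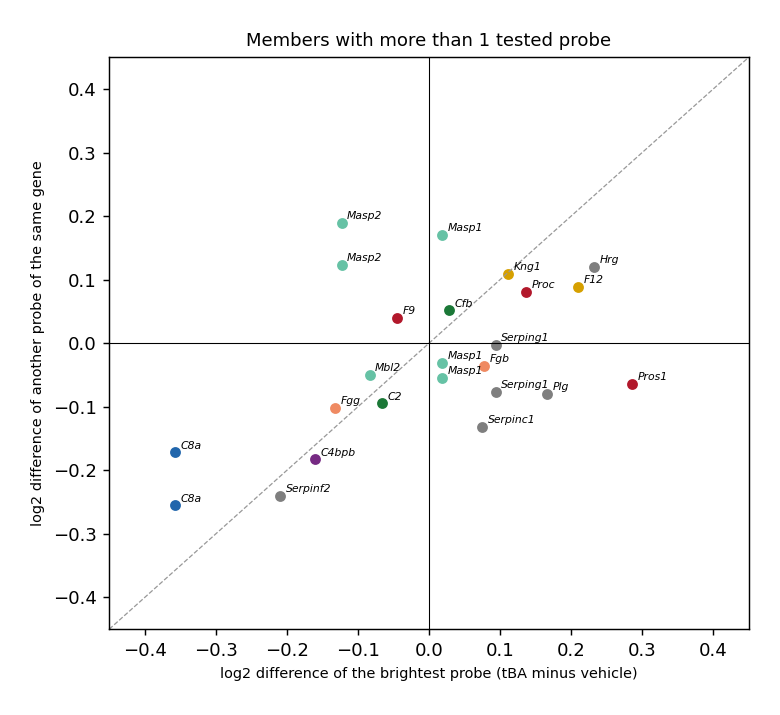
Difference (tBA minus vehicle, log2) of the brightest probe of a member (x axis) against that of each other tested probe of the same gene (y axis), for the 19 members with several probes. Points at the upper left and lower right are probes with opposite sign; all 3 probes of C8a lie below 0.

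Several probes were tested for 19 members, and in 8 of them, or 42.1%, the probes differed in sign, against 29.7% of 5497 genes with several probes. The 8 were F9, Pros1, Fgb, Serpinc1, Serping1, Plg, Masp1 and Masp2. Pros1 held the largest gap among them, 0.29 against -0.06. C8a, Fgg, F12, Hrg and Proc had all their probes on 1 side of zero. Probe sequences were not used here, so the part of each transcript that a probe reads is not given.

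Other genes of both cascades were counted from lists. Of 22 other complement genes 17 were tested, 10 higher and 7 lower, with a median difference of 0.02. With limma 0 passed and 1, Fcnb, had an unadjusted p under 0.05, beside 15.1% of all genes. Fcnb, a ficolin of the lectin pathway made by myeloid cells, was at -0.52, -0.21 and -0.40 in vehicle and at -0.70, -1.24 and -1.11 in tBA, a difference of -0.64 (SE 0.17, limma adjusted p = 0.217) without overlap. Fcna, a ficolin of liver macrophages, differed by -0.27 (limma adjusted p = 0.396). Of 10 macrophage markers 3 were higher and 7 lower, with differences from -0.64 for Marco to 0.09 for C1qa. Their summed level was 178 to 230 in vehicle and 195 to 200 in tBA. Most of that sum came from Clec4f, C1qb and C1qa, the last 2 of which are also on this complement list. The part of macrophages in the ficolin values was not tested. C1qbp, a mitochondrial protein named for binding C1q, differed by 0.24 (limma adjusted p = 0.334).

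Of 19 other genes of coagulation and fibrinolysis 15 were tested, 4 higher and 11 lower, with a median difference of -0.17. With limma 0 passed and 3 had an unadjusted p under 0.05, against 15.1% of all genes tested, of which 50.4% were higher. Lman1, the cargo receptor that carries factors V and VIII out of the endoplasmic reticulum, was at 3.48, 3.54 and 3.62 in vehicle and 3.19, 3.29 and 3.26 in tBA. The groups did not overlap, both probes were lower, and the difference was -0.30 (SE 0.09, limma adjusted p = 0.239). Plau, urokinase, differed by -0.37 (limma adjusted p = 0.303), and Plaur, its receptor, by -0.34 (limma adjusted p = 0.311), both at levels below the 75th percentile of their arrays.

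The liver transcription factors and the interleukin-6 and STAT3 pathway, which govern many of the members, were read from a list of 14, all tested, with 6 higher and 8 lower. With limma 0 passed and 2 had an unadjusted p under 0.05, again beside 15.1% of all genes. Onecut1, the liver factor HNF6, was at 5.03, 5.76 and 5.12 in vehicle and at 1.91, 4.03 and 2.38 in tBA. The groups did not overlap, and the difference of -2.53 (SE 0.55, 95% interval -3.86 to -1.19, limma adjusted p = 0.189) was larger than that of any member, with both probes lower. Cebpa, a factor of hepatocyte differentiation, was at 1.09, 1.24 and 0.82 in vehicle and 0.57, 0.29 and 0.57 in tBA, a difference of -0.57 (SE 0.14, limma adjusted p = 0.216), again with both probes lower. Socs3, the feedback inhibitor induced by STAT3, differed by -0.27 (limma adjusted p = 0.327). On slide 1 Onecut1 differed by -3.39 and Cebpa by -0.48.

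Acute phase genes, many but not all of which hepatocytes induce together with fibrinogen and C3, were read from 10 markers. Of these 6 were higher, with a median difference of 0.04. With limma 0 passed and 2 had an unadjusted p under 0.05, beside 15.1% of all genes. Their differences ran from -0.42 for Crp, the C-reactive protein, to 2.15 for Hamp, hepcidin.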

How the data were processed

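Total RNA of liver was labelled with Cy3 and read on 6 Agilent one-colour arrays. Per the file headers, the authors made the intensity values with Agilent Feature Extraction 10.7.1.1 (10.7 in the submitters' processing notes), which writes a background-subtracted, processed signal per spot; the array annotation uses rn4. The deposited series table holds a linear ratio, the processed signal divided by 1 number per array, from 570.0 to 639.5 and near the 75th percentile of that array; its column medians were 0.102, 0.102 and 0.0994 in vehicle and 0.0982, 0.0950 and 0.0952 in tBA, so it is linear, not centred, and higher means more signal.

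The measure was log2 of the processed signal minus the array's 75th percentile over 61657 probes. Control spots were dropped. On each array 3 to 16 outlier spots were set to missing, none of them on a probe used for a member, and no spot was saturated. A probe was tested if every array of 1 group or both read it well above background. The test was limma 3.58.1 (lmFit, eBayes) under R 4.3.3, with Benjamini-Hochberg adjustment over all 37647 and a threshold of 0.05. An exact two-sided permutation test of 3 against 3 arrays cannot go below p = 0.1. The number of arrays limits the precision. Probes were named by accession through RefSeq genes of GRCr8 (27460 probes, 15284 symbols), without coordinates since the builds differ, and a gene took its probe with the highest mean signal. Medians and counts over members are descriptions, not tests.

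Values on every array are given for the vitamin K-dependent factors, the fibrinogen chains, and up to 3 members of each other role by smallest unadjusted p; from each other list up to 3 genes were taken the same way. Genes named beyond this (among them C9, Mbl1, C3, Serpinc1, Vtn, Ggcx and the extremes of a range) were chosen after their values were seen. The rule for the members uses no measured value, but members, roles and lists were drawn up with earlier results of these data known.

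Alternatives were normexp background correction (offset 50), normalization by quantiles, by the median or by the 75th percentile of detected probes, the series table itself, other filters on dim probes, an intensity trend, a replicate block, slide as a block (fixed or random) and slide 1 on its own, the mean of all probes of a gene, and leaving out each array. Of the scripts, only the main limma fit was tested on simulated data. Python 3.11.15 with matplotlib 3.10.9 drew the figures.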

Additional observations from a re-analysis of the deposited data

How the results depend on the processing

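No member passed the test under any of the 19 alternatives, where the lowest adjusted p was 0.140. Of the 35 members, 16 kept their sign in all of them and 19 changed it in at least 1. Not every alternative could change a sign. The other filters on dim probes, the intensity trend and the replicate block leave each member's difference as it was. Slide as a fixed block and slide 1 alone give the same differences as each other. The cause of the shifts below was not tested.

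Against 42 probes called over the array, there were 18 without a filter on dim probes, 0 with the filter requiring all 6 arrays, 68 with an intensity trend, 20 with slide as a fixed block, 0 on slide 1 alone and 6 with the replicate block; leaving out 1 array gave 6 to 45, with 22 without vehicle replicate 1, 25 without vehicle replicate 3, 6 without tBA replicate 2 and 14 without tBA replicate 3. Members with an unadjusted p under 0.05 numbered 2 with the percentile over detected probes, 1 without the filter, 2 with slide as a fixed block, 1 on slide 1 alone, 1 with the replicate block and 1 with the mean of all probes; leaving out 1 array gave 0 to 6, with 0 without vehicle replicate 3 or tBA replicate 2. Members higher in tBA numbered 11 after quantile normalization and 15 to 21 leaving out 1 array.

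The median over members, 0.01 as reported, was -0.0597 after quantile normalization, 0.0883 after median normalization and 0.0872 with slide as a fixed block or on slide 1 alone, against 0.0160 with slide as a random block (-0.04 to 0.07 leaving out 1 array). For the vitamin K-dependent members it was 0.00803 after quantile and 0.166 after median normalization (0.06 to 0.11 leaving out 1 array). For the 12 coagulation members that are not vitamin K-dependent, 0.08 as reported, it was 0.0383 after normexp, 0.00551 after quantile and 0.150 after median normalization, and -0.00332 with the mean of all probes (-0.0168, without vehicle replicate 1, to 0.0837). For the complement members, -0.07 as reported, it was 0.14 with slide as a fixed block or on slide 1 alone and -0.07 with slide as a random block (-0.15 to 0.05, the latter without tBA replicate 2).

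Same-numbered arrays did not deviate together (r = -0.06, -0.06 and 0.01 across probes), so the replicate numbers were not taken as pairs. Depth here is signal over background, which all 35 members exceeded on every array. With 3 arrays against 3, the median member had a standard error of 0.12, and 2 of the 3 tBA arrays were alone on slide 2.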
